A study of Mus musculus with 13 samples.

Results

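Gene expression in the soleus of mdm mice was set against that in the psoas of mdm mice. The members of the comparison are the 8 libraries labelled mdmSol (3 libraries) or mdmPso (5 libraries), of 13 mdm libraries in all, and the 17069 of 17924 deposited genes whose normalized count reached 10 or more in 3 or more of the 13 libraries. The mdm mutation is a recessive deletion in titin (Ttn), the giant spring protein of the sarcomere, that removes part of its N2A region. All libraries compared came from mdm mice of a colony founded with heterozygous B6C3Fe a/a-Ttn mdm/J animals, so every gene difference described is one between 2 muscles of the mutant, and wild-type muscle was not analysed here. The soleus libraries came from mice of 33, 36 and 38 days with the label codes T4, T4 and T6, and the psoas libraries 1 to 5 from mice of 29, 38, 42, 38 and 38 days with the codes T3, T4, T5, T6 and T6. The labels do not say what the codes mark. The sex label is male for soleus 1 and 2 and psoas 2, female for psoas 3 and not given for the others. The 5 mdm extensor digitorum longus (EDL) libraries, from mice of 38 to 42 days, entered the fit to estimate the spread between libraries and are quoted only as reference levels. Whole muscles were used, so a transcript of few cells and a transcript at a low level per cell cannot be told apart.

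The soleus is a postural muscle of the calf that is rich in slow, oxidative fibres, and the psoas is a hip flexor that runs along the lumbar spine behind the lining of the abdomen and is rich in fast fibres. Slow and fast fibres carry different isoforms of nearly every contractile protein. Slow fibres contain the heavy chain Myh7 with the light chains Myl2 and Myl3, the slow troponins Tnnt1, Tnni1 and Tnnc1, the tropomyosin Tpm3 and the calcium pump Atp2a2, and fast fibres contain Myh2, Myh1 or Myh4 with fast troponins and the pump Atp2a1. Muscle that is forming or being repaired also makes embryonic (Myh3) and perinatal (Myh8) heavy chains under the control of myogenic factors such as Myod1. Muscles of limb and trunk further keep different Hox genes, which mark position along the body.

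Total counts ran from 9114176 in soleus 3 to 39484945 in soleus 1, and from 16315975 to 30009501 in psoas. The libraries carried the tissue identity of their labels, since Myl2, Myl3, Tnnt1 and Atp2a2 were higher in every soleus than in every psoas library. Over all genes tested the libraries of the 2 muscles lay hardly farther apart (root mean square difference of log2 CPM, counts scaled to the library total, 0.77 to 1.21 over 15 pairs) than libraries of the same muscle (0.61 to 1.06 over 10 pairs of psoas and 0.65 to 0.94 over 3 pairs of soleus). Sex-linked transcripts divided the libraries unevenly. Xist, the RNA of the inactive X chromosome, had 6466, 3923 and 3345 normalized counts in psoas 1, 3 and 5 and at most 6.88 in psoas 2 and 4 and in all 3 soleus libraries, which instead had counts of Y-linked genes. The soleus group thus held no library with the Xist pattern. With this pattern as a covariate the edgeR test called 69 genes higher and 97 lower at an adjusted p under 0.05, and with only the Y-linked pattern, which leaves 3 soleus and 2 psoas libraries, 3 higher and 7 lower. Titin itself had 474605, 482522 and 346264 normalized counts in soleus and 947475, 414645, 854359, 802927 and 793125 in psoas. The ranges overlapped, and the log2 fold change of -0.80 ± 0.42 (SE) did not pass the test (adjusted p = 0.449, edgeR).

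Few genes passed the test. In the edgeR quasi-likelihood test with Benjamini-Hochberg adjustment over all genes, a strict call (adjusted p under 0.01 with a log2 fold change above 1 or below -1) was made for 12 genes higher in soleus, 0.0703% of those tested, and for 1 gene lower, 0.00586%, together 0.0762%. A 5% call (adjusted p under 0.05 at any fold change) was made for 74 genes higher, 0.434%, and 34 lower, 0.199%. At an unadjusted p under 0.05 there were 1057 genes higher (6.19%) and 1106 lower (6.48%). All 3 soleus libraries lay above all 5 psoas libraries for 848 genes (4.97%) and below them for 886 (5.19%), together 10.2%, and each of the 108 genes with a 5% call was among these. Among the libraries compared, code T4 holds soleus 1 and 2 and psoas 2, and code T6 holds soleus 3 and psoas 4 and 5. Without overlap the 108 genes had to differ in the called direction within each code, so that agreement is no separate check. With label code as a block, 62 of the 74 and 27 of the 34 kept an adjusted p under 0.05 (edgeR). Among the genes that did not were Tnni1 (0.0663), Myh6 (0.0597), Mhrt (0.0659), Fhl2 (0.0742), Rxfp2 (0.0653), St8sia2 (0.0506), Gfra1 (0.0555) and Th (0.0742), each given with its adjusted p under the block. With the sex-linked pattern as a covariate, the genes above 0.05 included Cdkn1a (0.0804), Th (0.0909), Fhl2 (0.0700) and Cdh3 (0.0582, edgeR). Rp1 (0.0700), Krt222 (0.0700) and Syndig1 (0.0692) were also among them. DESeq2 made 95 strict calls higher (0.557%) and 76 lower (0.445%). Without soleus 1, the deepest library compared, the 5% calls numbered 15 higher and 3 lower.

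**Figure D1:**
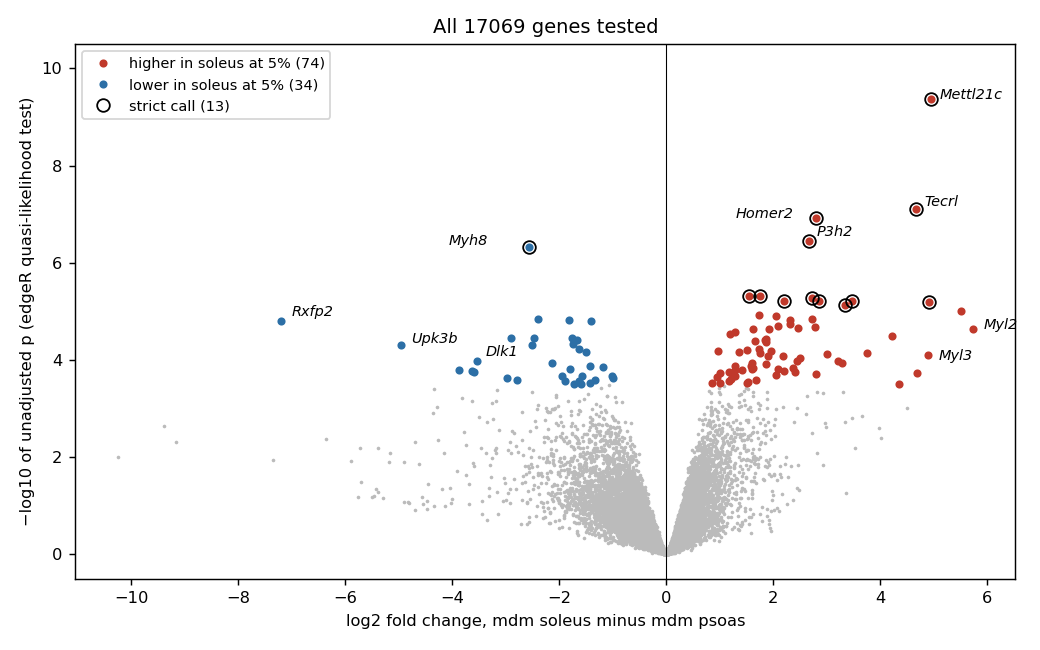
Each point is 1 of the 17069 genes tested, with the log2 fold change of mdm soleus against mdm psoas on the x axis and the -log10 of the unadjusted edgeR p on the y axis. Red points are the 74 genes higher and blue points the 34 genes lower in soleus at 5%, and circles mark the 13 strict calls, with Mettl21c at the top. Fitted fold changes of genes that are absent from 1 muscle, such as Rxfp2, depend on the fit and are not limits.

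The gene with the smallest p was Mettl21c, a lysine methyltransferase of muscle for which the translation factor eEF1A is a reported substrate. It lies at chr1:44009408-44020034 on GRCm38. Its normalized count was 5002, 3663 and 7698 in the 3 soleus libraries and 268, 151, 119, 192 and 146 in psoas libraries 1 to 5. The lowest soleus library was thus far above the highest psoas library, and the fitted difference was 31.2-fold (log2 fold change 4.96 ± 0.34 SE, adjusted p = 7.45e-06, edgeR). In EDL the gene had 281 to 631. Among the 18 methyltransferases of the list tested, 2 had a 5% call, both higher. The other was Eef1akmt1, which also methylates eEF1A, with 468, 469 and 492 in soleus and 81.1 to 216 in psoas (log2 fold change 1.52 ± 0.27, adjusted p = 0.0228). The median of the list, -0.02, was close to the -0.03 of all genes tested.

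Tecrl encodes a reductase-like protein of the endoplasmic reticulum known from heart muscle. It had 252, 193 and 297 normalized counts in soleus against 6.06, 13.4, 12.8, 7.82 and 8.29 in psoas, a 25.5-fold difference (log2 fold change 4.67 ± 0.47, adjusted p = 0.000662). Homer2, a scaffold protein that binds calcium channels and receptors, had 907, 1059 and 953 in soleus and 80.1, 91.3, 165, 167 and 198 in psoas. The soleus values of Homer2 lay close together, and the difference was 7.00-fold (log2 fold change 2.81 ± 0.30, adjusted p = 0.000693). P3h2, a prolyl 3-hydroxylase of collagens, had 579, 685 and 270 in soleus, while psoas stayed between 65.0 and 87.6 (log2 fold change 2.67 ± 0.30, adjusted p = 0.0015).

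Smaller differences with a strict call were those of Inpp4b, a phosphoinositide phosphatase, with 1160, 851 and 1104 in soleus against 296 to 450 in psoas, and of St3gal5, the synthase of the ganglioside GM3, with 2237, 2609 and 1290 against 548 to 692. Their log2 fold changes were 1.55 ± 0.22 and 1.75 ± 0.25. Cacna2d3, an auxiliary subunit of voltage-gated calcium channels, had 33.5 to 82.5 in soleus and 5.21 to 14.9 in psoas, with 33.8 to 73.0 in EDL. Agbl1, a carboxypeptidase that trims glutamate from proteins such as tubulin, had 294 to 334 in soleus and 15.8 to 65.5 in psoas. The transcript 1700016C15Rik had 18.6 to 39.5 against 1.07 to 3.26. The mitochondrial tRNA mt-Tn had 462, 255 and 236 against 49.5 to 84.5, and its neighbour mt-Tc, with a 5% call, had 1925, 1207 and 904 against 133 to 355 (log2 fold change 2.47 ± 0.40, adjusted p = 0.0139). Tpm3-rs7 (971 to 1527 against 67.1 to 205) is a near copy of Tpm3, and reads of the 2 genes may have been assigned to either. Of the 13 strict calls, 12 in the higher direction and Myh8 in the lower, all had an adjusted p under 0.05 with label code as a block, and all passed the DESeq2 strict call. With each library left out in turn, only 3 of the 12, Mettl21c, Tecrl and Homer2, kept the strict call in every fit, and Myh8 did not. All but mt-Tn kept an adjusted p under 0.05 in every such fit. Without soleus 1 that of mt-Tn was 0.0621 (edgeR).

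**Figure D2:**
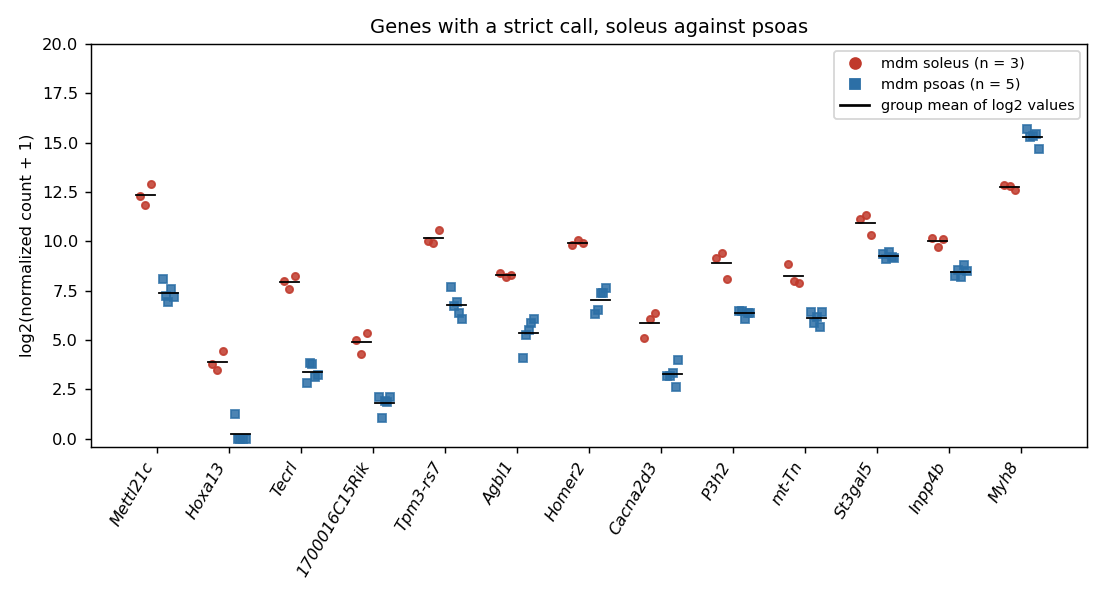
Values of the 13 genes with a strict call, as log2(normalized count + 1), in the 3 mdm soleus libraries (red circles) and the 5 mdm psoas libraries (blue squares), with black bars at the group means of these log2 values. The 2 groups do not overlap for any of these genes, and Myh8 alone is lower in soleus.

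Of the 47 gene lists, that of slow sarcomere genes had the most 5% calls. Of 17 slow sarcomere genes tested, 6 had such a call, all higher in soleus, and 0 lower, 12 had an unadjusted p under 0.05 in the higher direction, and the median log2 fold change was 1.76 against -0.03 over all genes tested. Without soleus 1 none of the 6 kept an adjusted p under 0.05 (edgeR, from 0.0505 for Myl2 to 0.257 for Myoz2). The median of the list was then 1.58. The windows before the RefSeq starts of 3 of these genes, and of Myh8 as the strict call in the other direction, are shown to set contractile genes called in opposite directions side by side. Each line gives the 250 bases before the RefSeq start (GRCm38.p6, in the direction of the gene). Capitals mark matches to the E-box CANNTG, the motif bound by Myod1 and related factors, on either strand. The RefSeq start coincides with the GENCODE gene start for Myh8, lies 7762 bases before it for Myl2 and lies 407 and 21817 bases after it for Tnnt1 and Myl3, whose windows are thus inside the GENCODE genes.
Tnnt1 (chr7:4515976-4516225, minus strand): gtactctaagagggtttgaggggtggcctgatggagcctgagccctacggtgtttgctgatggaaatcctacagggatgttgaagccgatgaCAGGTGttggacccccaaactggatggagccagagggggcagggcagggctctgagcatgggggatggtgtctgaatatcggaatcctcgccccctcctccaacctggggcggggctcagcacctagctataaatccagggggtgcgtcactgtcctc
Myl3 (chr9:110763428-110763677, plus strand): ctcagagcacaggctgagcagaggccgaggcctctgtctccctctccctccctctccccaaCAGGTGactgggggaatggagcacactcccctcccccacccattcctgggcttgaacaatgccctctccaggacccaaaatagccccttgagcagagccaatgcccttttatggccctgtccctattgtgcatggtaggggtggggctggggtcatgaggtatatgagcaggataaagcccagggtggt
Myl2 (chr5:122092939-122093188, plus strand): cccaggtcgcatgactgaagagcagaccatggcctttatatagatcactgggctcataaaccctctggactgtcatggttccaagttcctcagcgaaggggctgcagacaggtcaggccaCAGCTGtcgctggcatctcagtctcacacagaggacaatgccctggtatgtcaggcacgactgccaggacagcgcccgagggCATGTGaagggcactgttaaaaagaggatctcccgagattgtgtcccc
Myh8 (chr11:67276874-67277123, plus strand): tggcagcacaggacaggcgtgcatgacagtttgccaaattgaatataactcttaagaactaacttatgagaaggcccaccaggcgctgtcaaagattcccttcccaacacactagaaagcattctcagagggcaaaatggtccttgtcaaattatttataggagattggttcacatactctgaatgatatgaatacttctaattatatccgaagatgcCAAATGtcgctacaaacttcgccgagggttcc
An E-box occurred in 66% of the 27025 RefSeq windows of this length, taking 1 per symbol, in 38 of 55 windows of genes called higher at 5% and in 20 of 29 of genes called lower. The MCAT letters CATTCC, searched on both strands and able to share an end base with an E-box, occurred in 12.6% of all windows, in 9 of the 55 and in 5 of the 29, and 2 times in the Myl3 window.

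Myl2, the slow regulatory light chain, had the largest fitted fold change among the genes called higher. Its normalized count was 54764, 46822 and 73702 in soleus and 507, 1433, 2798, 180 and 584 in psoas, a 53.2-fold difference (log2 fold change 5.73 ± 0.94, adjusted p = 0.0139, edgeR). Myl3, the slow essential light chain, had 12555, 11854 and 19527 in soleus and 288, 332, 1512, 93.8 and 229 in psoas (log2 fold change 4.90 ± 0.91, adjusted p = 0.0251). For both light chains psoas 3 was the highest psoas library and psoas 4 the lowest. Tpm3 had 29722, 29585 and 36261 in soleus and 607 to 3386 in psoas (log2 fold change 4.23 ± 0.72, adjusted p = 0.017). Tnnt1, slow troponin T, had 38746, 42706 and 32446 against 1517 to 6910, and Tnni1, slow troponin I, 38408, 29641 and 37083 against 4113 to 8911 (log2 fold changes 3.29 ± 0.63 and 2.50 ± 0.47). Myoz2, a calcineurin-binding protein of the slow Z disc, had a smaller difference of 1.52 ± 0.32 (adjusted p = 0.0489). Atp2a2, the calcium pump of slow and cardiac muscle, was the gene called among 6 slow calcium-handling genes tested, with 66697, 65169 and 49182 in soleus and 10678, 11718, 21333, 8506 and 8810 in psoas (log2 fold change 2.31 ± 0.36, adjusted p = 0.0121). Without soleus 1 its adjusted p was 0.0621 (edgeR).

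Myh7, the slow heavy chain, did not pass the test although its groups did not overlap. It had 160463, 182496 and 98825 normalized counts in soleus and 3379, 6343, 20950, 271 and 1427 in psoas, so every soleus library was above every psoas library, but psoas 3 and psoas 4 lay far apart. The log2 fold change was 4.51 ± 1.10 (adjusted p = 0.096). Ankrd2, a stretch-responsive ankyrin repeat protein that binds the N2A region of titin, had 3360, 2545 and 2791 in soleus and 504 to 1477 in psoas (log2 fold change 1.76 ± 0.47, adjusted p = 0.129). Myh6, the alpha cardiac heavy chain next to Myh7, was called, with 30426, 36022 and 23216 against 984, 1351, 4465, 178 and 360 (log2 fold change 4.35 ± 0.93, adjusted p = 0.0494). Myh6 and Myh7 are near-identical in sequence over long stretches and the Myh6 count is therefore uncertain. Mhrt, a noncoding transcript annotated between these genes on the opposite strand, had 385, 476 and 94.6 against 1.74 to 27.2. Mhrt starts 1.75 kb past the annotated end of Myh6. The strand setting of the counting is not given in the sources used here, so reads of Mhrt cannot be told apart from those of any gene that overlaps it. Among 17 partners of titin and the Z disc, 1 had a 5% call, Fhl2, a LIM protein that binds titin, with 529, 582 and 741 against 224 to 325 (log2 fold change 1.18 ± 0.25, adjusted p = 0.0467).

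Fast contractile genes gave 1 call. Of 15 fast sarcomere genes tested, 0 had a call higher and 1 lower at 5%, 8 had an unadjusted p under 0.05 in the lower direction, and the median log2 fold change was -1.46. The gene called was Myh1, the fast 2X heavy chain, with 25342, 35711 and 38395 normalized counts in soleus and 144065, 86690, 207189, 297203 and 206488 in psoas (log2 fold change -2.50 ± 0.44, adjusted p = 0.0195). Tnnt3, fast troponin T, had 29857, 19052 and 24848 against 46450 to 98112 (log2 fold change -1.46 ± 0.33, adjusted p = 0.0669). Myh2 and Myh4, the 2A and 2B heavy chains, overlapped between the muscles (log2 fold changes -1.03 ± 0.50 and -1.26 ± 0.73, adjusted p = 0.409 and 0.494), and soleus 3 had more Myh4, 18198, than psoas 1, 2 and 3. Atp2a1, the fast calcium pump, had 7340, 12073 and 11143 in soleus and 16852, 17320, 32020, 49683 and 43283 in psoas. Its groups did not overlap, and the log2 fold change of -1.64 ± 0.51 did not pass (adjusted p = 0.2). None of the 16 fast calcium-handling genes tested had a 5% call, with 1 higher and 2 lower at an unadjusted p under 0.05.

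The heavy chains were also compared per length, as shares of 6 heavy chain transcripts after division by transcript length. Myh7 took 34.8%, 41.2% and 39.5% of this total in soleus and 0.729%, 2.06%, 3.34%, 0.0510% and 0.343% in psoas. Myh1 took 5.63%, 8.26% and 15.7% in soleus and 28.8% to 57.3% in psoas. Embryonic Myh3 took 37.5%, 26.1% and 20.7% in soleus and 19.4%, 23.3%, 7.59%, 5.0% and 8.31% in psoas, and perinatal Myh8 1.63%, 1.63% and 2.54% in soleus and 11.5%, 13.3%, 6.81%, 8.46% and 6.35% in psoas. Myh3 thus overlapped between the muscles, with psoas 2 above soleus 3, whereas every psoas library had a larger Myh8 share than every soleus library. Embryonic and perinatal chains were present in all 8 libraries.

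**Figure D3:**
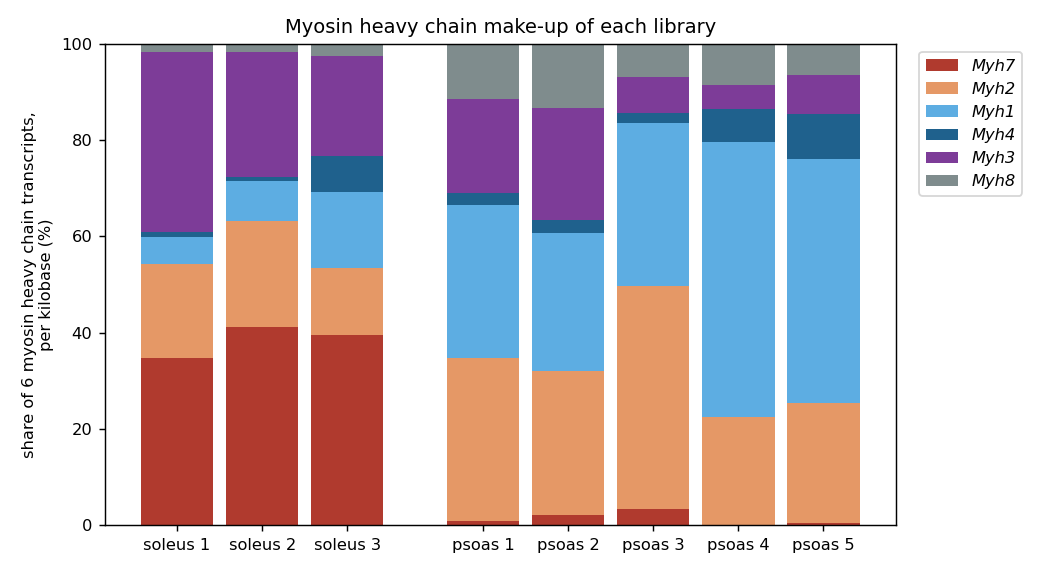
Stacked bars give the share of each of 6 myosin heavy chain transcripts, per kilobase of transcript, in percent of their total, for the 3 mdm soleus and 5 mdm psoas libraries. Myh7 and Myh3 take most of each soleus bar, with Myh1 reaching 15.7% in soleus 3, and Myh1 and Myh2 take most of each psoas bar.

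Myh8 was the only strict call in the lower direction. It had 7403, 7111 and 6260 normalized counts in soleus and 52631, 40515, 42117, 44352 and 26027 in psoas, a 5.91-fold difference (log2 fold change -2.56 ± 0.30, adjusted p = 0.00163, edgeR). Soleus values lay close together. Of 8 developmental sarcomere genes tested, 1 had a 5% call higher (Myh6) and 1 lower (Myh8).

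Myod1, Dlk1, Mbnl3 and Col19a1 were lower in soleus. Myod1, the factor that commits cells to the muscle lineage, had 137, 105 and 105 in soleus and 546, 297, 325, 482 and 390 in psoas (log2 fold change -1.81 ± 0.28, adjusted p = 0.0121). It was the gene called among 20 satellite cell and myogenic genes tested, of which 11 had an unadjusted p under 0.05 in the lower direction and 0 in the higher, with a median log2 fold change of -0.82. Megf10, a receptor of satellite cells, had 185, 402 and 127 against 468 to 627 (log2 fold change -1.22 ± 0.30, adjusted p = 0.101). Dlk1, an imprinted membrane protein of fetal and regenerating tissue, had 10.3, 2.14 and 17.2 in soleus and 138, 131, 68.7, 123 and 75.4 in psoas, where EDL had 2.71 to 17.9 (log2 fold change -3.53 ± 0.67, adjusted p = 0.0302). It was the gene called among 31 growth and imprinted genes tested, of which 12 were lower and 1 higher at an unadjusted p under 0.05. Zim1, another imprinted gene, had 261, 366 and 308 against 585 to 961 (adjusted p = 0.0575). Mbnl3, a splicing regulator of immature muscle, had 11.2, 27.1 and 15.5 against 69.5 to 142, and Col19a1, a collagen made in forming muscle, 210, 109 and 84.2 against 482 to 987 (log2 fold changes -2.47 ± 0.42 and -2.39 ± 0.37).

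Cdkn1a, the cell cycle inhibitor p21, had 173, 266 and 139 in soleus and 923, 482, 519, 457 and 536 in psoas (log2 fold change -1.59 ± 0.34, adjusted p = 0.0489). With 1 library left out, Cdkn1a kept its 5% call in 1 of 13 fits. It was the gene called among 22 cell cycle genes tested, whose median log2 fold change was -1.14 and of which 13 were lower and 1 higher at an unadjusted p under 0.05. The higher one was Ccnd2, cyclin D2, with 730, 834 and 653 against 305 to 501 (log2 fold change 0.89 ± 0.24, adjusted p = 0.134). E2f8, a repressor of the cell cycle, had 14.1, 15.7 and 13.8 against 35.7 to 64.3 (log2 fold change -1.89 ± 0.39, adjusted p = 0.0458). The median of the list was -1.20 within code T4 and -1.40 within code T6.

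Hox genes were called in both directions. Hoxa13, a gene of the distal limb, had 12.8, 9.998 and 20.6 normalized counts in soleus, 1.40 in psoas 1 and 0 in the other psoas libraries, and 41.9 to 93.6 in EDL. Since no psoas library exceeded 3 counts, the mean soleus level was at least 6.68-fold higher, against a floor of 3 counts per library (adjusted p = 0.00904, edgeR). Hoxc11 had 40.6, 37.9 and 39.5 in soleus and 6.99, 7.48, 0.916, 6.95 and 6.63 in psoas (log2 fold change 2.73 ± 0.43, adjusted p = 0.0121), and Hoxd8 had 263, 231 and 282 against 83.8 to 170 (log2 fold change 1.21 ± 0.25, adjusted p = 0.0447). Hoxc8, which lies 32.9 kb from Hoxc11 in the Hoxc cluster and marks more anterior levels, had the reverse pattern, with 4.97, 5.0 and 18.9 in soleus and 65.2, 59.8, 51.3, 72.1 and 50.6 in psoas (log2 fold change -2.78 ± 0.58, adjusted p = 0.0454). In EDL Hoxc11 had 26.0 to 44.0 and Hoxc8 2.71 to 12.8. Of 21 Hox genes tested, 3 had a 5% call higher and 1 lower, and 8 of the 21 were lower at an unadjusted p under 0.05. Barx2, a homeobox factor of muscle precursors, had 114, 131 and 124 in soleus and 34.5, 3.74, 11, 15.6 and 22.4 in psoas (log2 fold change 2.81 ± 0.57, adjusted p = 0.0393) and was the gene called among 25 other transcription factors of body position.

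Upk3b, a uroplakin and marker of mesothelium, had 5.79, 0 and 1.72 in soleus, 126, 189, 36.6, 91.2 and 27.4 in psoas and at most 0.426 in EDL (log2 fold change -4.96 ± 0.88, adjusted p = 0.0198). Upk1b had 6.21, 0 and 1.72 against 120, 92.9, 55.0, 38.2 and 9.95 (log2 fold change -4.33 ± 0.95, adjusted p = 0.0575). Of 13 mesothelial markers tested, Upk3b was the gene called, 11 were lower at an unadjusted p under 0.05, and for 8 all soleus libraries lay below all psoas libraries. The median log2 fold change was -2.20, with -3.13 within code T4 and -1.33 within code T6. The summed level of the list, to which keratins of other cells also contribute, was 2084 to 4429 in soleus and 2719 to 7285 in psoas. Rxfp2, the receptor of insulin-like peptide 3, had 0 counts in all soleus libraries and 20.5, 5.34, 11, 15.6 and 13.3 in psoas, at least 4.62-fold lower in soleus (adjusted p = 0.0121). Lrp2, the endocytic receptor megalin, had 10.3, 1.43 and 6.88 against 128, 128, 25.6, 67.7 and 39.0, and Cdh3, P-cadherin, at most 2.14 against 12.2 to 28.9, at least 6.23-fold lower. EDL had at most 1.35 of Lrp2 and 8.71 of Cdh3. The part of adjoining tissue in these differences was not tested.

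**Figure D4:**
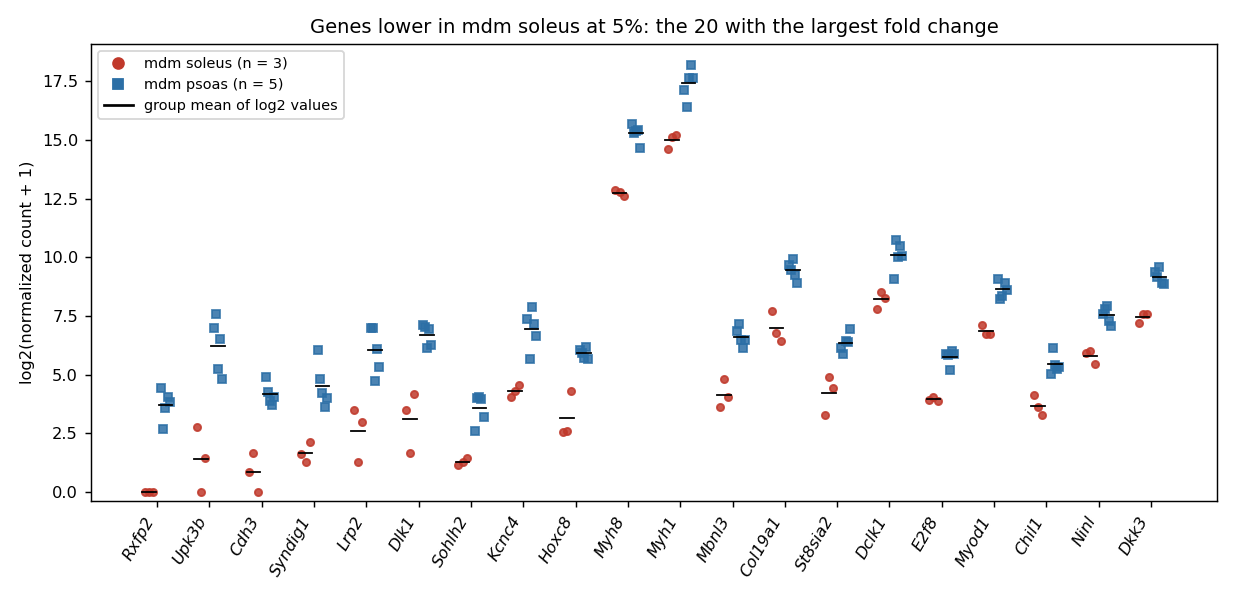
Values of the 20 genes lower in soleus at 5% with the largest fitted fold change, as log2(normalized count + 1), for mdm soleus (red circles, n = 3) and mdm psoas (blue squares, n = 5), with black bars at the group means. Rxfp2 is at 0 in every soleus library, Myh8 and Myh1 are the most abundant, and no soleus library reaches a psoas library of the same gene.

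Kcnc4, a voltage-gated potassium channel, was lower, with 15.3, 18.6 and 22.4 in soleus and 165, 49.7, 235, 142 and 99.5 in psoas (log2 fold change -2.90 ± 0.49, adjusted p = 0.017), with 115 to 263 in EDL. Kcnc2, of the same channel family, was called in the other direction, with 57.1, 17.9 and 48.1 in soleus against 5.87 to 12.6 (log2 fold change 2.22 ± 0.44, adjusted p = 0.0369). Syndig1, which organises glutamate receptors at synapses, had 2.07, 1.43 and 3.44 against 11.3 to 65.2. St8sia2, which adds polysialic acid to the neural cell adhesion molecule, had 8.69, 28.6 and 20.6 against 57.1 to 123 (log2 fold change -2.12 ± 0.41, adjusted p = 0.0315). Gfra1, the receptor of the nerve growth factor GDNF, had 58.8, 92.1 and 67.1 against 135 to 150, and Th, tyrosine hydroxylase of catecholamine synthesis, 128, 117 and 167 against 254 to 663. Of 18 neuromuscular junction and denervation genes tested, none had a 5% call, 6 were lower and 0 higher at an unadjusted p under 0.05, and the median was -0.53. This median was -0.13 within code T4, -1.01 within code T6, -0.24 without soleus 3 and -0.31 without psoas 3. Rapsn, which anchors acetylcholine receptors, had 42.6, 62.8 and 73.9 against 102 to 154 (log2 fold change -1.10 ± 0.30, adjusted p = 0.133). Schwann cell and myelin markers had a median of -1.06 over 17 genes with 0 calls and 9 lower at an unadjusted p under 0.05, and a median of -0.69 without psoas 1. Their summed level was 3722 to 8879 in soleus, 35599 in psoas 1 and 5768 to 17943 in the other psoas libraries.

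Oxidative metabolism genes had positive medians and 1 call. Idh2, the mitochondrial isocitrate dehydrogenase, had 8387, 6151 and 10141 in soleus and 1404, 1996, 3052, 3004 and 2894 in psoas (log2 fold change 1.74 ± 0.31, adjusted p = 0.0228) and was the gene called among 26 of the citric acid cycle and ketone use. Bdh1, a ketone body dehydrogenase, had 138, 270 and 703 against 9.16 to 114 (log2 fold change 3.47 ± 0.90, adjusted p = 0.12). All 36 nuclear complex I subunits tested had a positive log2 fold change, with a median of 0.48, 7 of them at an unadjusted p under 0.05 and 0 with a 5% call. Their median stayed between 0.33 and 0.67 when any 1 library was left out. Ndufb3 had 1610, 1467 and 2228 in soleus and 566 to 1280 in psoas (log2 fold change 0.96 ± 0.31, adjusted p = 0.206). Nuclear subunits of complexes III to V had a median of 0.50 over 43 genes, fatty acid oxidation genes 0.50 over 28, and mitochondrial ribosomal proteins 0.36 over 77 genes, all 77 positive, each list with 0 calls. At an unadjusted p under 0.05, 9, 5 and 13 genes of these 3 lists were higher and 0 lower. Fabp3, the fatty acid binding protein of heart and slow muscle, had 2475, 2145 and 3972 against 870 to 1611 (log2 fold change 1.22 ± 0.29, adjusted p = 0.0953).

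Proteins encoded by mitochondrial DNA did not keep 1 direction. The median over 13 genes was 0.44, but 1.23 within code T4 and -0.76 within code T6, and it was 0.03 without soleus 1. mt-Co1 had 714297, 454507 and 599611 in soleus and 386512, 245044, 297099, 276754 and 494769 in psoas (log2 fold change 0.80 ± 0.34, adjusted p = 0.344). Glycolysis and glycogen genes had a median of -0.02 over 35 genes and 0 calls, with 4 higher and 2 lower at an unadjusted p under 0.05. Their median was 0.43 within code T4 and -0.41 within code T6. Ppp1r3c, which targets a phosphatase to glycogen, had 4009, 4098 and 4266 in soleus and 767, 891, 803, 2059 and 2633 in psoas (log2 fold change 1.54 ± 0.41, adjusted p = 0.127). Gatm, the first enzyme of creatine synthesis, was lower, with 350, 229 and 304 against 588 to 1119 (log2 fold change -1.49 ± 0.27, adjusted p = 0.0233), and Vegfa, the angiogenic growth factor, higher, with 1381, 998 and 1061 against 484 to 643 (log2 fold change 0.96 ± 0.17, adjusted p = 0.0233). Endothelial markers had a median of 0.43 over 21 genes with 0 calls, 3 of them higher at an unadjusted p under 0.05, and a median of 0.21 without soleus 2.

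Fat and immune cells were examined through markers. None of 18 adipocyte markers had a 5% call, and 10 were higher and 1 lower at an unadjusted p under 0.05, with a median of 1.01. Adipoq, adiponectin, had 8221, 4461 and 9076 in soleus and 1537 to 3282 in psoas (log2 fold change 1.54 ± 0.40, adjusted p = 0.122), and Retn, resistin, 2456, 1413 and 2780 against 439 to 1178 (adjusted p = 0.0982). Ucp1, the uncoupling protein of brown fat, had at most 3.44 in soleus and 6.52, 36.8, 73.3, 73.0 and 4911 in psoas 1 to 5, so 1 psoas library carried nearly all of it (adjusted p = 0.134). Macrophage markers had a median of -0.60 over 20 genes with 0 calls, 3 of them lower at an unadjusted p under 0.05, and -1.70 within code T4, where psoas 2 is the only psoas library, and without psoas 2 it was -0.21. Cpa3, a mast cell protease, had 340, 238 and 669 in soleus against 107 to 182 (adjusted p = 0.0911), and S100a8, a calcium-binding protein of neutrophils, 7.45, 12.9 and 20.6 against 28.9 to 905 (adjusted p = 0.0951). Interferon-response genes had a median of -0.53 over 30 genes, 1 of them lower at an unadjusted p under 0.05, which was -1.45 within code T4 and 0.53 within code T6, and -0.07 without psoas 2, -0.35 without soleus 1 and -0.81 without soleus 3. The part of these cells in the differences of other genes was not tested.

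**Figure D5:**
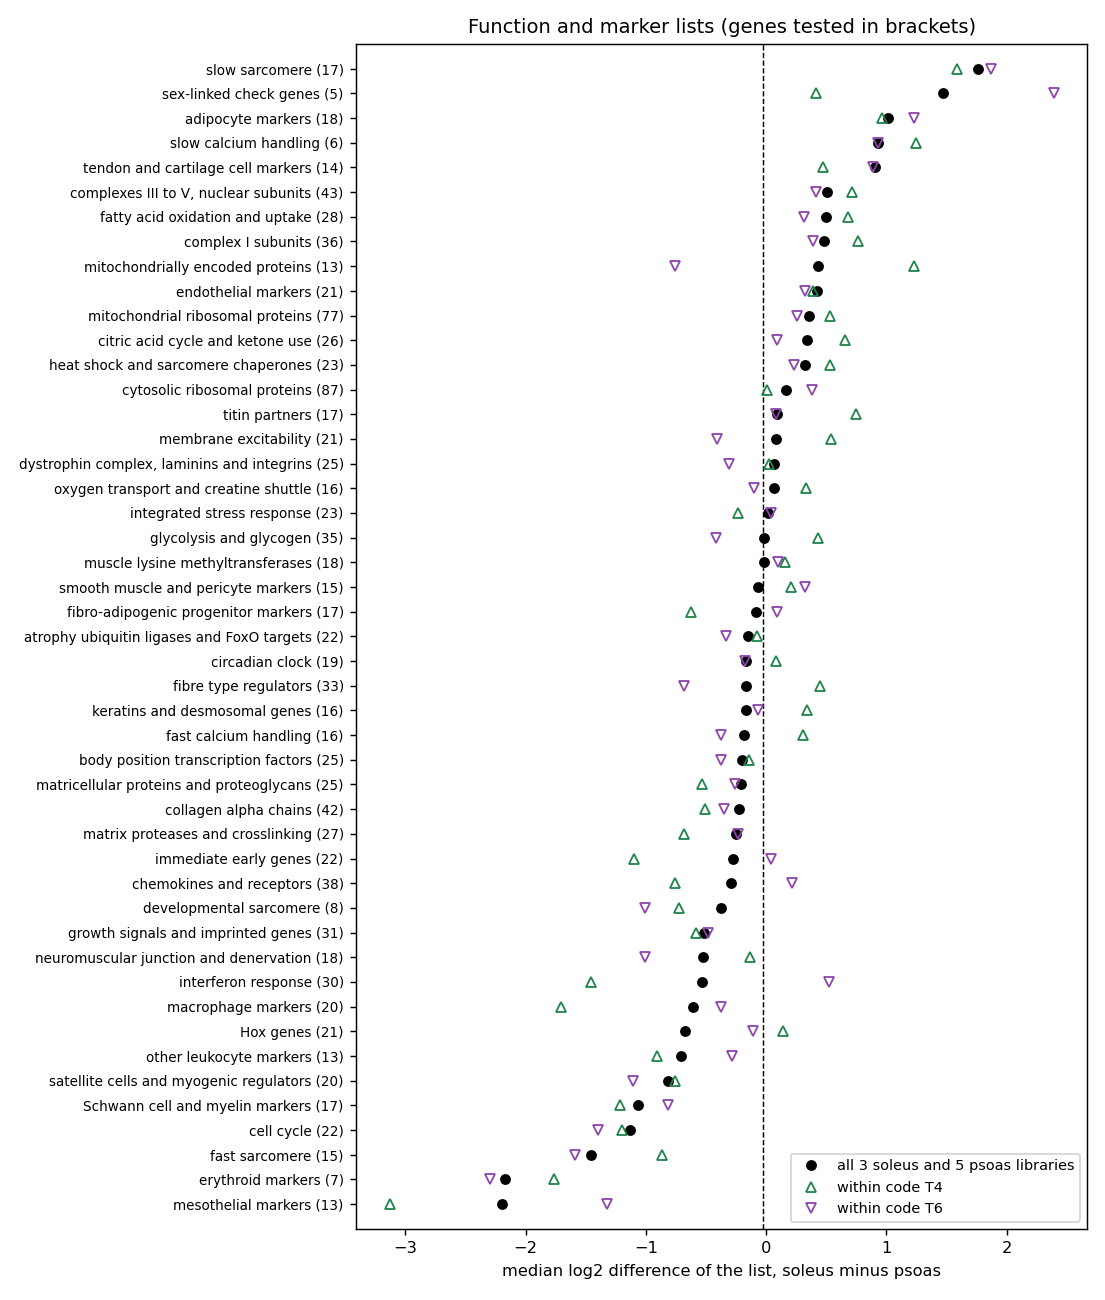
Each row is a list of genes by function or cell type marker, with the number tested in brackets, ordered by its median log2 fold change of soleus against psoas (black dots). Open triangles give medians within code T4 (up) and T6 (down), and the dashed line is the median of all genes, -0.03. Slow sarcomere genes lie highest at 1.76 and mesothelial markers lowest at -2.20. Several lists change side between the codes, among them the mitochondrially encoded proteins, glycolysis and glycogen, and the interferon response. Of the 47 lists, 30 have no 5% call by edgeR, and 4 of these hold a DESeq2 strict call.

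Connective tissue genes showed few calls. Of 42 collagen chains tested, 0 were called higher and 1 lower, Col19a1. Col11a2, a cartilage collagen, had 232, 508 and 505 in soleus against 32.6 to 214 in psoas (log2 fold change 2.04 ± 0.59, adjusted p = 0.162), and Comp, a matrix protein of tendon and cartilage, 1459, 2767 and 1102 against 165 to 849 (log2 fold change 1.89 ± 0.44, adjusted p = 0.077). Tendon and cartilage markers had a median of 0.91 over 14 genes, with 6 higher and 2 lower at an unadjusted p under 0.05. Their log2 fold changes ran from -1.22 to 2.04. The summed level of the list overlapped, with 8776 to 13132 in soleus and 7503 to 17090 in psoas. Ccn5, a matricellular growth regulator, was called, with 108, 226 and 150 in soleus, 22.4 to 50.7 in psoas and 166 to 341 in EDL (log2 fold change 2.05 ± 0.32, adjusted p = 0.0121).

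Of the other genes with the largest fitted fold changes, Gm34302, a protein-coding gene model, had 34.3, 89.3 and 103 normalized counts in soleus and 0.466 to 3.66 in psoas (log2 fold change 5.52 ± 0.84, adjusted p = 0.0118, edgeR). Rp1, a microtubule-associated protein known from photoreceptors, had 46.8, 32.1 and 65.3 against 0.829 to 7.45 (log2 fold change 3.75 ± 0.69, adjusted p = 0.0233). Krt222 was the gene called among 16 keratins and desmosomal genes tested, with 33.1, 63.6 and 55.0 in soleus and 4.27 to 20.0 in psoas (log2 fold change 2.1 ± 0.41, adjusted p = 0.0356).

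Among further genes called at 5%, chosen for mention after their values were seen, several encode signals and receptors. Npr3, the clearance receptor of natriuretic peptides, had 5601, 4896 and 2137 in soleus and 706 to 2029 in psoas. Bdnf, a neurotrophin, had 127, 87.1 and 101 against 29.0 to 42.4, and Fzd9, a Wnt receptor, 273, 213 and 205 against 33.1 to 88.7. Smtnl1, a smoothelin-like regulator of muscle phosphatase, had 2800, 1942 and 1926 against 305 to 936 (log2 fold change 1.93 ± 0.32, adjusted p = 0.0139). Dkk3, a secreted Wnt modulator, was lower, with 144, 192 and 189 against 467 to 762, as was Dclk1, a microtubule-binding kinase, with 225, 366 and 311 against 538 to 1728. Of the genes called, 10 of the 74 genes called higher and 0 of the 34 called lower were not protein coding. The share among all genes tested was not counted, so these counts show no excess in either direction.

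Some called genes lay side by side. On chromosome 14 Il17d, a cytokine (chr14:57524777-57543166), Eef1akmt1 (chr14:57549597-57571612) and Xpo4, a nuclear export receptor (chr14:57577521-57665430), follow each other within gaps of 6.43 and 5.91 kb, and all 3 were higher in soleus. Il17d had 89.4, 76.4 and 87.7 normalized counts against 19.8 to 30.7, and Xpo4 1575, 2177 and 1107 against 340 to 765 (log2 fold changes 1.84 ± 0.32 and 1.75 ± 0.32, adjusted p = 0.0176 and 0.0233). On chromosome 11 the neighbours Myh1 and Myh8, 52.5 kb apart, were both lower, and on chromosome 5 Myl2 and Atp2a2, 340 kb apart, were both higher. On chromosome 3 Sohlh2 and Dclk1, 32.4 kb apart, were both lower. Among the 108 genes called, 11 pairs of genes next to each other in the list lay within 500 kb, and the number of such pairs among other genes was not counted.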

How the data were processed

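RNA of whole muscles was sequenced by the authors from TruSeq Stranded Total RNA libraries on a NextSeq 500 with paired reads. Reads were trimmed with Trimmomatic where base quality was low, aligned to GRCm38.p4 with TopHat and counted on genes with GenomicAlignments. The deposited counts are whole numbers per gene, and the authors also deposited a normalized signal, the count divided by a DESeq2 size factor, which is the normalized count quoted here (size factors 0.502 to 2.42). How reads over several genes were assigned, and whether strand was used, is not given in the sources used here.

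Groups, ages, codes and sex labels come from the labels, and the authors call the samples biological replicates. Muscles of 1 mouse may be among them, and p-values measure the spread between these libraries. None of 23 pairs of libraries of 1 muscle agreed within sampling noise (smallest chi-square per degree of freedom 53.1). Total counts of 9114176 to 48835209 set the counting precision, and soleus 3 is the shallowest library.

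Counts of 13 libraries were fitted with edgeR 4.0.16 in R 4.3.3 (quasi-likelihood test, TMM, muscle as the only factor, contrast soleus minus psoas, Benjamini-Hochberg over 17069 genes). The study had also fitted the sequencing run, which the labels do not name, so the label code was tried as an alternative. The standard error of a log2 fold change is its size over the root of the F statistic. DESeq2 1.42.0, limma 3.58.1 (log2 CPM with a prior count of 2), other normalizations, filters, covariates and leaving out each library were alternatives. On simulated counts with 200 of 17069 genes changed, edgeR recovered 97.5%. The simulation planted only large changes in well-counted genes, with the same spread for every gene and no differences by code, age or sex. This share is therefore not the power of the real comparison. A level of at most 3 counts in every library of a muscle was treated as a floor of 3 counts per library. Symbols and coordinates are those of GENCODE mouse release 21 for 17833 of 17924 genes. Summaries used pandas 2.3.3 and numpy 2.4.6 under Python 3.11.15, and plots matplotlib 3.10.9.

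Lists were described by counts and medians, with no set test. Members and lists were chosen with earlier results of these data known. Named genes were picked as strict calls, the 10 largest in each direction among non-overlapping 5% calls, up to 5 called members of each list or, with fewer than 2, its 2 smallest p, and 8 anchors (Ttn, Myh7, Myh2, Myh1, Myh4, Atp2a1, Atp2a2, Mettl21c). Genes picked from a list without a 5% call are printed only in part. Other 5% calls were named after their values were seen.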

Additional observations from a re-analysis of the deposited data

Results flagged for a closer look

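Among the 108 genes with a 5% call, 1 of the 5 psoas libraries stood apart from the other 4 for 10 genes, its gap to the nearest being over 0.71 of the whole psoas range. For normally distributed values this limit flags about 1 in 20 groups. Here it was applied to unlogged counts of genes called on the same libraries, so that rate need not hold. The share flagged was 9.26%, and without a fitting rate to set it against, an excess over chance was not tested. Groups of 3, such as soleus, were not examined in this way.

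Psoas 3 was the library apart for 6 of the 10 genes. It was highest for Atp2a2 (21333 normalized counts against 8506 to 11718 in the other psoas libraries), Myl3 (1512 against 93.8 to 332), Myh6 (4465 against 178 to 1351) and 1110020A21Rik (39.4 against 26.9 to 29.8). It was lowest for P3h2 (65.0 against 82.5 to 87.6) and Hoxc11 (0.916 against 6.63 to 7.48). Psoas 3 is the library from the oldest mouse of the comparison, 42 days, and the only one with the code T5, so age, code and library cannot be told apart. Every soleus library stayed above psoas 3 for Atp2a2, Myl3 and Myh6.

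Psoas 1 was apart for 3 genes. It was lowest for Ppa1, an inorganic pyrophosphatase (440 against 761 to 880), highest for Cdkn1a (923 against 457 to 536), and the only psoas library with any Hoxa13 (1.40 against 0). Psoas 2 was highest for Chil1, a chitinase-like protein (69.4 against 31.7 to 42.1).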

How the results depend on the processing

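The number of calls depended on the tool, on the covariates, on the libraries and, for strict calls higher, on the scaling. Strict calls higher in soleus were 95 with DESeq2, 5 with upper-quartile factors, 4 with label code as a block, 4 with the sex-linked pattern as a covariate and 0 with the Y-linked pattern only. Strict calls lower were 76 with DESeq2, 5 with limma, 5 with codes T4 and T6 only, 2 with label code as a block, 2 with age, 3 with the sex-linked pattern, 0 with soleus and psoas libraries only and 0 with the Y-linked pattern only. Calls at 5% higher were 220 with DESeq2, 118 with codes T4 and T6 only, 149 with label code as a block and 3 with the Y-linked pattern only, and those lower were 219, 159, 144 and 7, and 97 with the sex-linked pattern. Both alternatives on the sex-linked pattern were chosen after seeing the data. The cause of these moves was not tested, and the smaller fits also held fewer libraries.

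Leaving out 1 library at a time gave 3 to 18 strict calls higher and 0 to 3 lower, and 15 to 82 calls higher and 3 to 30 lower at 5%. Lower calls at 5% numbered 3 without soleus 1, 9 without soleus 2, 4 without soleus 3, 18 without psoas 2, 21 without psoas 3, 14 without psoas 4 and 22 without psoas 5. Higher calls at 5% numbered 15, 31 and 29 without soleus 1, 2 and 3, and 34 and 35 without psoas 2 and 4. Strict calls higher numbered 3, 3 and 5 without soleus 1, 2 and 3, and 5, 4, 6, 4 and 4 without psoas 1 to 5. Without EDL 1, 2 and 3 they numbered 7, 7 and 5. The single strict call lower became 0 without any 1 of the soleus libraries, 2 without psoas 2 or EDL 2 and 3 without EDL 5.

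Replicate numbers did not pair the libraries, since same-numbered soleus and psoas libraries came from mice of different ages. Their deviations from the muscle means correlated at 0.16, 0.14 and -0.30. The largest positive correlations were 0.29 for soleus 3 with psoas 4 and with psoas 5, which share its code and age. That of soleus 2 with psoas 3, of another code, was 0.28. The labels do not say whether any of these libraries share a mouse. The fit with a replicate block gave 206 calls higher and 114 lower at 5%, and its value for Slc4a1, an erythroid gene that was not called, was 0.51 where the reported direction was negative. Kdm5d, a Y-linked gene, had -0.036 with the sex-linked pattern as a covariate. No other named gene changed sign under any alternative. Of the comparisons of called genes with alternatives other than leaving out a library, 1235 kept and 276 lost the 5% call. DESeq2 gave no adjusted p for Myl3, which is not counted there. Of the comparisons with 1 library left out, 839 kept and 565 lost the 5% call. In every such fit it was kept by 13 of the 74 genes called higher and 1 of the 34 called lower. The shift of the median over all genes between scalings was under 0.1 on the log2 scale. Soleus 3, with 9114176 counts, limits the precision of weak genes.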
